A study of Homo sapiens with 6 samples.

Results

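The genes described here encode the eukaryotic translation initiation factors (eIFs), their eIF4E-binding repressors and the 4 kinases that phosphorylate eIF2. They were chosen by gene symbol alone, as every row whose symbol begins with EIF and a factor number and holds only capital letters and digits. Each library's list held 26255 rows. The rule matched 56 of them, 1 pseudogene row was left out, and 55 genes remained as members. HT29 is an established human cell line grown from a colorectal adenocarcinoma. It received either DMSO or YM155, with 24 h recorded for both groups. YM155 is known as an inhibitor of survivin expression. Each treatment had 3 libraries of messenger RNA, here called replicates 1 to 3, and the labels name no other agent or genotype that differed. The dose of YM155 is not given in the sources used here. The labels speak of triplicates without saying whether these were separate cultures, so p-values measure the spread between these libraries, which may be technical.

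Initiation starts when eIF2, carrying the initiator tRNA and GTP, joins eIF1, eIF1A, eIF3 and eIF5 on the small ribosomal subunit. The cap-binding complex of eIF4E, eIF4G and the helicase eIF4A brings the messenger RNA, and the EIF4EBP proteins block it by binding eIF4E until mTORC1 phosphorylates them. In stressed cells the kinases HRI, PKR, PERK and GCN2 phosphorylate the alpha subunit of eIF2, which then holds back its exchange factor eIF2B. General initiation slows, while the messages of ATF4 and other stress factors are translated more, a program known as the integrated stress response.

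Values are FPKM, which divide a gene's fragments by transcript length and library size, so levels can be compared between genes. Changes are log2(FPKM + 1) differences, YM155 minus DMSO, tested with limma across 12035 genes at an adjusted p under 0.05. FPKM summed to 538478 to 563296 per DMSO library and 678699 to 696067 per YM155 library. By the steps between low values, 1 read was worth 1.52 to 1.78 times as much FPKM in the YM155 libraries as in DMSO replicate 1, against 0.997 and 1.11 times in DMSO replicates 2 and 3. The worth of a read depends on depth and on how the deposited values were scaled, and these cannot be told apart here. Of 11 colonic epithelial markers 7 rose, 2 fell (VIL1 and CDX2), 1 did not pass and 1, CDX1, was under 1 FPKM in every library. They summed to 5775 to 6058 FPKM with DMSO and 9374 to 10235 FPKM with YM155. The immune list summed to 5.28 to 6.996 FPKM with DMSO and 83.9 to 92.9 FPKM with YM155. Of its 5 genes, CD68, a lysosomal protein of macrophages and other cells, rose from 4.85 to 82.9 FPKM and CD79A from 0.399 to 4.85 FPKM. CDX2 reached 1 FPKM only in the DMSO libraries and CD79A only in the YM155 libraries. Each passed the filter through the group where it was higher, so these differences are descriptions without a test. CD14, a monocyte marker that was not tested, was at 1.05, 1.02 and 0.709 FPKM with DMSO against 0.319, 0.674 and 0.492 FPKM with YM155. PTPRC, the defining leukocyte gene, was at most 0.0172 FPKM and CD3E at most 0.0279 FPKM in any library. The 8 fibroblast and endothelial markers summed to at most 0.489 FPKM in any library. The part of these markers in the results was not tested. In a bulk sample, fewer cells of a kind and less RNA per cell cannot be told apart.

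Of the 55 members 50 passed the filter of at least 1 FPKM in at least 3 libraries. Of these, 34 rose with YM155 (68%, against 43.6% of all tested genes), 8 fell (16%, against 41.0%) and 8 did not pass. The median log2 fold change was 0.30 over the tested members and 0.025 over all tested genes. The groups did not overlap for 41 of 50 members (82%, against 85.9% of all tested genes). A log2 fold change of at least 1 was seen for 6 members that rose (12%, against 15.9%), and of at most -1 for 1 member that fell (2%, against 11.8%). The 34 and the 6 that rose, and the counts of higher members under each scaling below, include EIF5A2. That gene passed the filter through the YM155 libraries, so its place in these counts is a description without a test.

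Most rises were small and depended on how libraries were scaled. Upper-quartile scaling, rescaling to a common sum and quantile normalization moved the median of all tested genes by -0.31, -0.29 and -0.11 on the log2 scale. After upper-quartile scaling 18 members were called higher (36%, against 31.3% of all genes) and 20 lower (40%, against 54.7%). With a common sum the counts were 19 and 17 (against 31.8% and 53.5% of all genes), and with quantile normalization 13 and 21 (against 38.6% and 45.6%). The members are abundant, 25 of 50 lying in the top decile of tested genes by mean FPKM, and on the deposited scale the median log2 fold change ran from -0.52 in the scarcest decile to 0.31 in the top decile. With this trend removed by cyclic loess, a step added after seeing the data, 20 members were higher and 16 lower (against 40.8% and 42.2% of all genes). The part of scaling and abundance in each result was not tested further. Changes of the main members are therefore also given as a range over 6 scalings, each less the median of all genes under that scaling.

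**Figure D1:**
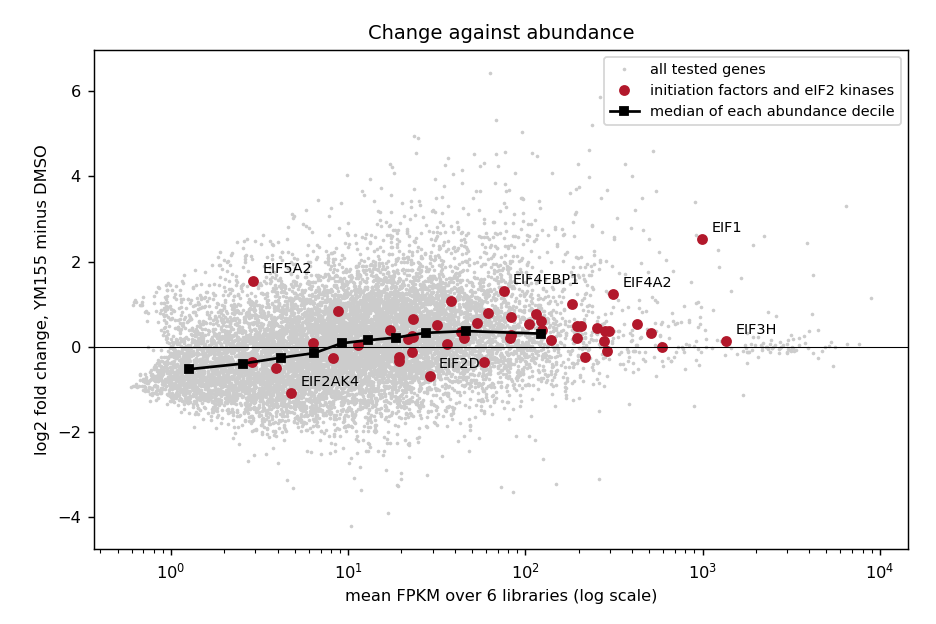
Log2 fold change (YM155 minus DMSO, deposited scale) against mean FPKM over the 6 libraries on a log axis, for all tested genes (grey), the 50 tested members (red) and the median of each decile of genes by abundance (black squares). The black line rises with abundance from -0.52 to 0.31, most members lie to the right of the plot, and EIF1 stands at 2.53, far above it.

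Under all 6 scalings 13 members were called higher (26%, against 30.4% of all tested genes) and 8 lower (16%, against 35.3%). The 13 were EIF1, EIF1B, EIF2S2, EIF2B2, EIF2A, EIF3A, EIF3J, EIF4G1, EIF4G3, EIF4A2, EIF4EBP1, EIF5A2 and EIF2AK2. EIF5A2 is counted here, but it passed the filter through the YM155 libraries. The 8 were EIF2B1, EIF2B3, EIF2D, EIF3L, EIF4EBP2, EIF4ENIF1, EIF2AK1 and EIF2AK4. eIF2B, eIF3, the eIF4E-binding repressors, the eIF2 kinases and the pair of EIF2A and EIF2D each held genes of both sets. Counts for each role below are to be read beside the shares over all tested genes. These were 43.6% higher and 41.0% lower on the deposited scale, and 30.4% and 35.3% under all 6 scalings.

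**Figure D2:**
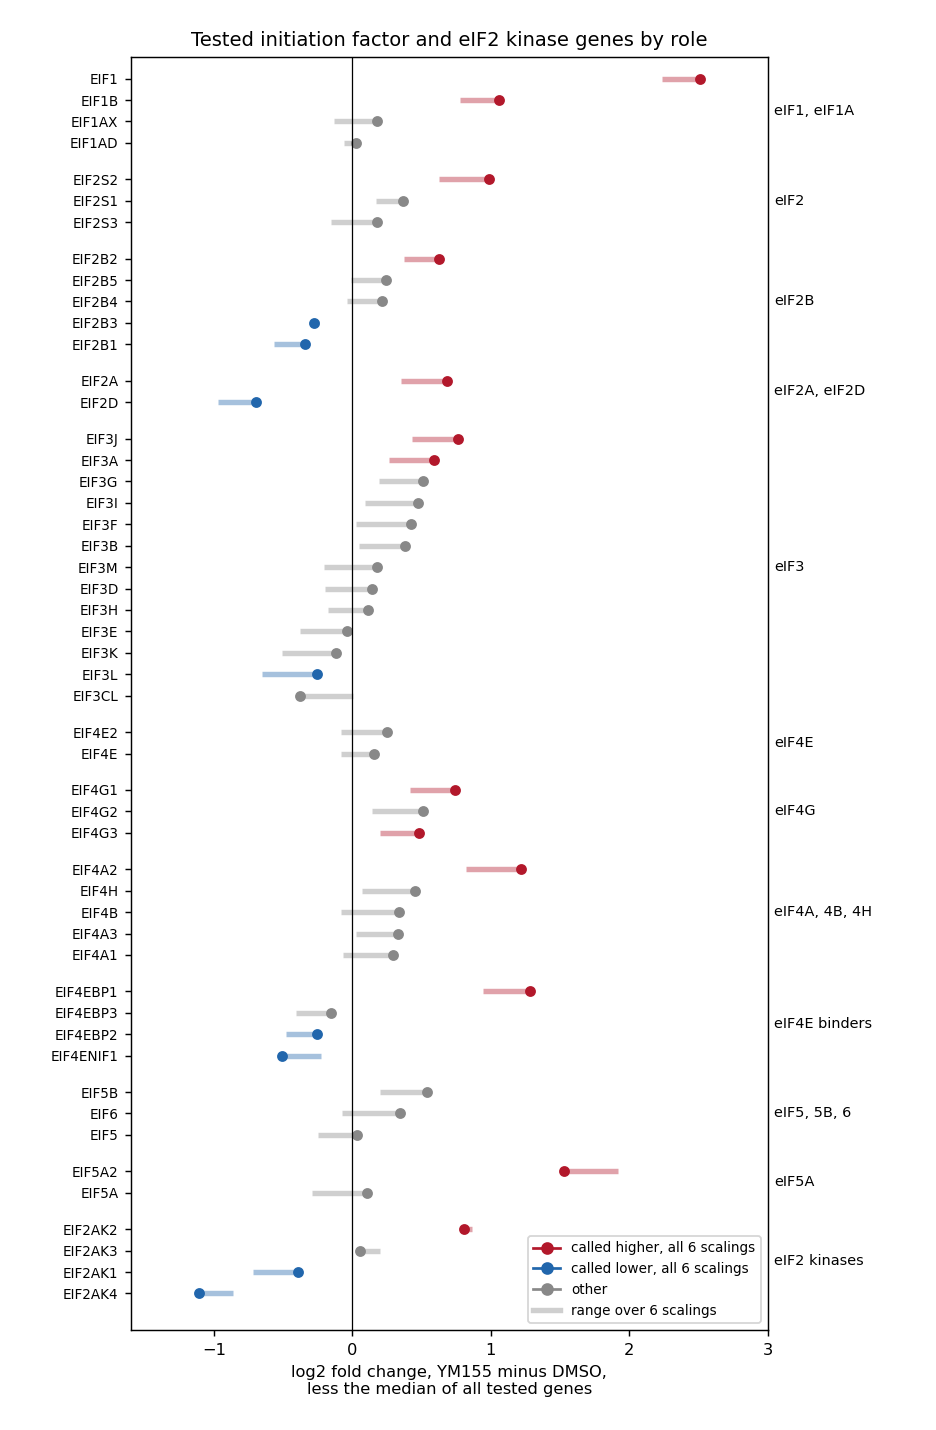
Log2 fold change of each tested member less the median of all tested genes, by role. Points are the deposited scale, bars span 6 scalings, and colours mark the 13 members called higher (red) and 8 called lower (blue) under all of them. EIF1 lies furthest to the right and EIF2AK4 furthest to the left.

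The 4 eIF2 kinases changed in different directions: 1 rose, 2 fell and 1 did not pass. EIF2AK1 encodes HRI, the kinase of heme shortage that also relays mitochondrial stress, and was the most abundant. Its level was 65.6, 66.9 and 65.9 FPKM with DMSO against 52.3, 49.5 and 51.6 FPKM with YM155. All YM155 libraries lay below all DMSO libraries, a 1.29-fold fall (log2 fold change -0.37 with SE 0.0411 and adjusted p = 2.6e-05). EIF2AK4 encodes GCN2, the sensor of uncharged tRNA, and stood at 7.01, 6.56 and 6.96 FPKM with DMSO against 2.93, 2.47 and 2.68 FPKM with YM155. This 2.54-fold fall was the deepest among all tested members (log2 fold change -1.09 with SE 0.0720 and adjusted p = 7.2e-07), with groups far apart. EIF2AK2 encodes PKR, the interferon-induced kinase of double-stranded RNA. Its level of 6.28, 5.74 and 6.12 FPKM with DMSO against 10.5, 12.9 and 11.4 FPKM with YM155 rose 1.91-fold (log2 fold change 0.83 with SE 0.0793 and adjusted p = 8.3e-06), and every YM155 library was above every DMSO library. EIF2AK3 encodes PERK, the kinase of the endoplasmic reticulum, and was at 6.398, 5.68 and 6.34 FPKM with DMSO against 5.91, 7.41 and 6.36 FPKM with YM155. Its groups overlapped and it did not pass (adjusted p = 0.41), with a log2 fold change between -0.22 and 0.16 over the 6 scalings. The other changes, less the median of all genes, spanned -0.72 to -0.39 for EIF2AK1, -1.11 to -0.87 for EIF2AK4 and 0.80 to 0.86 for EIF2AK2.

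Shares of the 4 kinase messages within a library do not change when a library is multiplied by 1 constant, though quantile normalization and cyclic loess do alter them. EIF2AK1 made up 76.9, 78.8 and 77.2% with DMSO against 73.01, 68.5 and 71.7% with YM155, so HRI remained the main kinase message in each. The share of EIF2AK2 went from 7.099 ± 0.308% to 16.1 ± 1.62% and that of EIF2AK4 from 8.03 ± 0.269% to 3.75 ± 0.336% (SD, n = 3). The log2 fold change of EIF2AK1 less that of EIF2AK4 was 0.72 on the deposited scale, 0.17 with quantile normalization and 0.18 with cyclic loess, and for EIF2AK2 less EIF2AK4 it was 1.92, 1.75 and 1.69. By mean share on the deposited scale EIF2AK2 went from the last place, close to EIF2AK3, to the second, and EIF2AK4 from the second to the last. The groups did not overlap for any of the 4 shares, for which a two-sided exact permutation test of 3 against 3 libraries gives p = 0.1, the smallest it allows. Summed, the 4 kinases stood at 85.2 ± 0.252 FPKM (DMSO) against 71.9 ± 0.337 FPKM with YM155.

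**Figure D3:**
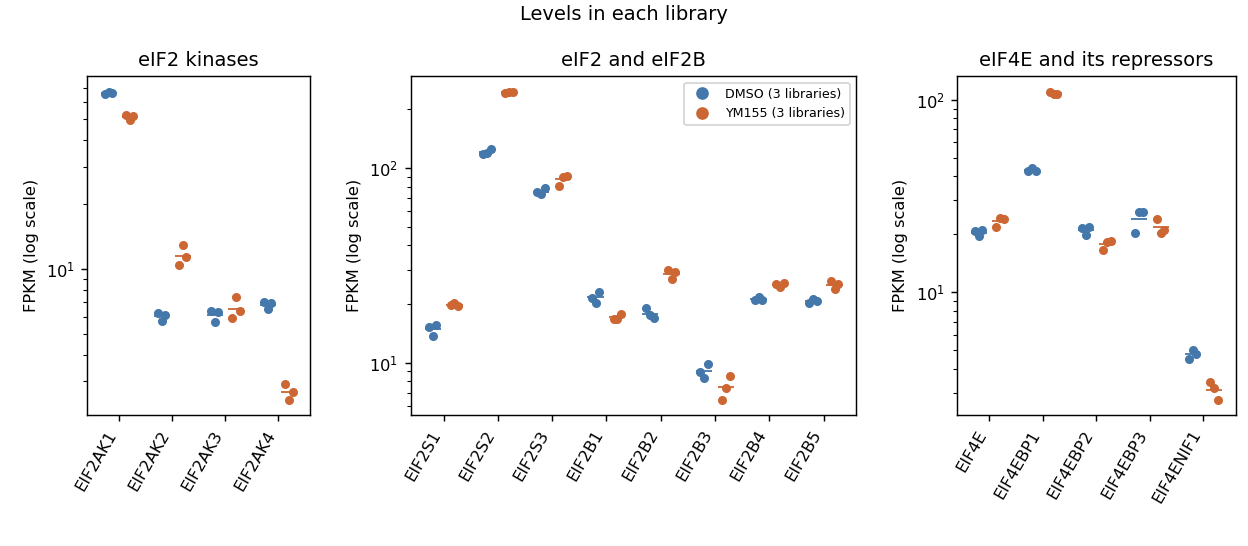
FPKM on log axes of the eIF2 kinases, the subunits of eIF2 and eIF2B, and EIF4E with its repressors in each library (points; DMSO blue, YM155 orange; bars are means of 3). EIF2AK4 falls and EIF2AK2 rises while EIF2AK3 overlaps, EIF2S2 and EIF2B2 rise, and EIF4EBP1 is the only repressor of 4 that rises.

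All 3 eIF2 subunit genes rose on the deposited scale, by unequal amounts. EIF2S2, for the beta subunit, was at 118, 119 and 125 FPKM with DMSO against 243, 246 and 246 FPKM with YM155, a 2.03-fold rise (log2 fold change 1.01 with SE 0.0395 and adjusted p = 2.7e-08) that kept its call under all 6 scalings (0.63 to 0.99 relative to the median). EIF2S1, for the alpha subunit that the kinases phosphorylate, was the scarcest of the complex. Its 15.2, 13.7 and 15.6 FPKM with DMSO against 19.7, 20.2 and 19.4 FPKM with YM155 amounted to a 1.33-fold rise (log2 fold change 0.39 with SE 0.0586 and adjusted p = 0.00018), without overlap. This call ended with upper-quartile, common-sum and quantile scaling (adjusted p = 0.33, 0.28 and 0.059). EIF2S3, for the gamma subunit that binds GTP, was at 75.01, 73.2 and 78.5 FPKM with DMSO against 80.98, 90.4 and 90.5 FPKM with YM155 (1.15-fold higher, log2 fold change 0.20 with SE 0.0548 and adjusted p = 0.0067). Its log2 fold change turned to -0.14 with upper-quartile, -0.12 with common-sum and -0.24 with quantile scaling. EIF2S2 per EIF2S1 within a library was 7.79, 8.69 and 8.02 with DMSO against 12.3, 12.2 and 12.7 with YM155.

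Of the 5 eIF2B genes, which encode the exchange factor that recharges eIF2, 3 rose and 2 fell. EIF2B2, for the beta subunit, rose 1.601-fold, with 18.97, 17.6 and 16.9 FPKM with DMSO against 29.9, 26.7 and 29.1 FPKM with YM155 (log2 fold change 0.65 with SE 0.0617 and adjusted p = 8.2e-06, and 0.38 to 0.62 over the scalings). EIF2B1, for the alpha subunit where phosphorylated eIF2 binds, fell 1.26-fold, with 21.4, 20.3 and 23.1 FPKM with DMSO against 16.8, 16.8 and 17.8 FPKM with YM155 (log2 fold change -0.32 with SE 0.0590 and adjusted p = 0.00072, and -0.57 to -0.34 over the scalings). These 2 regulatory subunits went opposite ways, and neither overlapped between the groups. EIF2B2 per EIF2B1 within a library was 0.884, 0.868 and 0.733 with DMSO against 1.78, 1.59 and 1.64 with YM155, so the order of the pair reversed. EIF2B3, for the gamma subunit of the catalytic core, was the scarcest, at 8.95, 8.37 and 9.84 FPKM with DMSO against 6.45, 7.42 and 8.51 FPKM with YM155. It was 1.21-fold lower (log2 fold change -0.25 with SE 0.0968 and adjusted p = 0.034), its groups overlapped, and the call was lost without DMSO replicate 1 or 3 (adjusted p = 0.072 and 0.13), without YM155 replicate 1 or 2 (0.1 and 0.068) and without a filter (0.078). EIF2B4, for the delta subunit, was at 20.8, 21.8 and 21.05 FPKM with DMSO against 25.2, 24.5 and 25.7 FPKM with YM155 (1.19-fold higher, adjusted p = 0.0012). EIF2B5, for the catalytic epsilon subunit, was at 20.3, 21.1 and 20.7 FPKM with DMSO against 26.2, 23.9 and 25.3 FPKM with YM155 (1.21-fold higher, adjusted p = 0.00096). Both rises turned to small negative values with upper-quartile, common-sum and quantile scaling and with cyclic loess (-0.10 and -0.069 with the first of these). The mean of the 5 subunits was 18.1 ± 0.237 FPKM with DMSO and 20.7 ± 0.741 FPKM with YM155.

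EIF2A and EIF2D, whose proteins can also deliver initiator tRNA to the ribosome, moved apart. EIF2A was at 62.7, 64.5 and 62.4 FPKM with DMSO against 99.7, 105 and 106 FPKM with YM155, 1.64-fold higher (log2 fold change 0.71 with SE 0.0425 and adjusted p = 3.9e-07). EIF2D was at 35.01, 37.9 and 34.2 FPKM with DMSO against 21.6, 22.5 and 21.9 FPKM with YM155, 1.62-fold lower (log2 fold change -0.67 with SE 0.0521 and adjusted p = 2e-06). Neither gene's groups overlapped, and both calls held under all 6 scalings (0.35 to 0.68 and -0.97 to -0.70 relative to the median).

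EIF1 had the largest rise of the family. Its protein binds near the decoding site and keeps the scanning ribosome from stopping at poor start codons. The level was 284, 292 and 301 FPKM with DMSO against 1668, 1725 and 1704 FPKM with YM155, a tight pair of groups with a 5.81-fold difference (log2 fold change 2.53 with SE 0.0415 and adjusted p = 2.5e-10). Over the 6 scalings the change was 2.23 to 2.51 relative to the median of all genes. EIF1 alone made up 4.39 ± 0.0925% of the summed FPKM of the 55 members with DMSO and 17.6 ± 0.315% with YM155 (SD, n = 3). EIF1B, a close paralog of EIF1, was at 24.4, 22.9 and 25.1 FPKM with DMSO against 53.6, 51.8 and 51.8 FPKM with YM155, 2.17-fold higher (log2 fold change 1.09 with SE 0.0486 and adjusted p = 6.1e-08), also without overlap and under all 6 scalings. The paralogs did not rise in proportion: EIF1 per EIF1B was 11.6, 12.8 and 12.01 with DMSO against 31.1, 33.3 and 32.9 with YM155. EIF5, whose protein activates GTP hydrolysis by eIF2 and works against eIF1 at start codons, was at 35.1, 33.9 and 37.1 FPKM with DMSO against 34.5, 38.7 and 37.8 FPKM with YM155, a difference that failed the test (adjusted p = 0.34). EIF1 per EIF5 therefore went from 8.27 ± 0.303 to 46.04 ± 2.06 (SD, n = 3), without overlap. EIF1AX, for eIF1A, was at 44.5, 36.9 and 44.3 FPKM with DMSO against 43.3, 53.03 and 48.6 FPKM with YM155, with overlapping groups (adjusted p = 0.064), and passed without YM155 replicate 1 (adjusted p = 0.014). EIF1AD, a relative of eIF1A, was at 10.4, 11.7 and 11.2 FPKM with DMSO against 10.9, 11.9 and 11.8 FPKM with YM155, which also failed the test (adjusted p = 0.49).

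The 250 bases before the annotated start are shown for EIF1, for its paralog EIF1B and for EIF5A2, which had the next largest rise after EIF1. EIF4EBP1 and EIF4A2 rose more than EIF1B (log2 fold changes of 1.31 and 1.25 against 1.09) and are not shown. They are from RefSeq (build GRCh38.p14, which is not the hg19 build of the expression tables). EIF1 lies on the plus strand (chr17:41688635-41688884), as does EIF1B (chr3:40309457-40309706), and EIF5A2 on the minus strand (chr3:170908638-170908887). Each reads in the direction of transcription, and capitals mark any match on either strand to TGATGNAA (core of the ATF4 response element), TGACNNNGC (core of the antioxidant response element of NRF2) or CACGTG (the E-box of MYC, MITF and TFE factors).
EIF1: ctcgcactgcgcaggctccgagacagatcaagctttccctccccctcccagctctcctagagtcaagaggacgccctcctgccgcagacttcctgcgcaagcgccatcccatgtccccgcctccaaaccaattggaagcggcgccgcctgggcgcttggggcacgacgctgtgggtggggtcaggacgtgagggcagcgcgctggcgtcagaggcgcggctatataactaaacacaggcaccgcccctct
EIF1B: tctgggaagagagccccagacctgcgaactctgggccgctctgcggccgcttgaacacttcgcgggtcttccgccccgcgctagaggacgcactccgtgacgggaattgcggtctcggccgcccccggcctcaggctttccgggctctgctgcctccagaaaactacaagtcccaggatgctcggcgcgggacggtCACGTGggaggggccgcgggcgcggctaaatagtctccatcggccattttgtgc
EIF5A2: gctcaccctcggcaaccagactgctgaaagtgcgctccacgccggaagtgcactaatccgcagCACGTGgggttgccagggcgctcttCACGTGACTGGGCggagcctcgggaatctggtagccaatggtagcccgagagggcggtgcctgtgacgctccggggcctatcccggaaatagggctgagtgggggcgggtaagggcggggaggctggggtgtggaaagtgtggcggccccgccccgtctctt
EIF1 held no match in these letters, EIF1B held 1 E-box that begins 54 bases before the start, and EIF5A2 held 2 E-boxes (187 and 162 bases before the start), the nearer of which overlaps a TGACNNNGC match at 158 bases. Promoter windows were found for 46 of the 55 members, in 61 windows. Of the 13 members higher under all scalings 10 had a window, and of the 8 lower 6 had one. The members without a window were not searched. TGATGNAA was in 1.64% of these and in 3.14% of all 35116 windows of the same length, and in none of the 10 matched genes that were higher under all scalings. TGACNNNGC was in 19.7% of the members' windows and 10.9% of all windows, and CACGTG in 19.7% and 6.34%. Among the 10 matched genes higher under all scalings, TGACNNNGC was found in 5 (EIF2A, EIF3J, EIF4G1, EIF4G3 and EIF5A2) and CACGTG in 4 (EIF1B, EIF2AK2, EIF4G1 and EIF5A2). Both counts include EIF5A2, which passed the filter through the YM155 libraries. Counted by gene over all 46 matched members, TGACNNNGC was in 10 and CACGTG in 12. Each was found in 1 of the 6 matched genes lower under all scalings, TGACNNNGC in EIF4EBP2 and CACGTG in EIF2B3. A match describes letters in a window and is not a binding site.

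The eIF3 complex, the scaffold that joins the small ribosomal subunit to messenger RNA, has 14 genes among the members. Of 13 tested, 9 rose, 1 fell and 3 did not pass, with a median log2 fold change of 0.21, against 0.025 over all tested genes. After upper-quartile scaling that median was -0.14, against -0.28 over all tested genes. Only EIF3A and EIF3J were higher under all 6 scalings, and only EIF3L was lower. EIF3J, for a loosely bound subunit that acts on start selection and ribosome recycling, was at 45.2, 40.5 and 48.99 FPKM with DMSO against 72.2, 80.9 and 80.9 FPKM with YM155, 1.74-fold higher (log2 fold change 0.79 with SE 0.0746 and adjusted p = 8.1e-06), without overlap. EIF3A, for the largest core subunit, was at 95.2, 98.1 and 98.0 FPKM with DMSO against 149, 150.4 and 148 FPKM with YM155, 1.54-fold higher (log2 fold change 0.61 with SE 0.0371 and adjusted p = 4e-07), without overlap. EIF3L, a peripheral subunit, was at 235, 246 and 227 FPKM with DMSO against 203, 193 and 208 FPKM with YM155, 1.17-fold lower (log2 fold change -0.23 with SE 0.0476 and adjusted p = 0.0016), and here too the groups were apart. EIF3J per EIF3L within a library was 0.193, 0.164 and 0.216 with DMSO against 0.356, 0.419 and 0.389 with YM155.

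EIF3H was the most abundant member in every DMSO library and second to EIF1 in every YM155 library, at 1288, 1299 and 1314 FPKM with DMSO against 1422, 1396 and 1464 FPKM with YM155. It was 1.098-fold higher (log2 fold change 0.13 with SE 0.0411 and adjusted p = 0.013), but the call was lost without YM155 replicate 3 (adjusted p = 0.063) and the sign turned with upper-quartile scaling (-0.22). EIF3E was at 579, 581 and 616 FPKM with DMSO against 580.0, 579 and 599 FPKM with YM155, with overlapping groups (adjusted p = 0.76). Its log2 fold change was -0.014, and 0.014 without DMSO replicate 3, and the gene was called lower with upper-quartile, common-sum and quantile scaling and with cyclic loess (-0.36, -0.34, -0.46 and -0.26). EIF3K did not pass either (log2 fold change -0.091, adjusted p = 0.19) and was called lower under the same 4 settings. EIF3B, EIF3F, EIF3G and EIF3I rose 1.32-fold, 1.37-fold, 1.45-fold and 1.42-fold on the deposited scale. EIF3D and EIF3M rose 1.12-fold and 1.15-fold, and their log2 fold changes turned to -0.18 and -0.14 with upper-quartile scaling. Without EIF3C and EIF3CL, the mean levels of the 12 subunit genes with DMSO ran from 44.9 FPKM (EIF3J) to 1301 FPKM (EIF3H). This was a 28.98-fold range of message for subunits of a single complex, and the range was 18.3-fold with YM155. Protein was not measured.

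EIF3C and EIF3CL are near-identical copies, and their rows cannot be read as separate genes. EIF3C was listed at 0.0148, 0.0261 and 0.0290 FPKM with DMSO against 4.35, 0.0289 and 0.0286 FPKM with YM155, and EIF3CL at 2.51, 3.13 and 3.25 FPKM with DMSO against 0.154, 4.48 and 3.66 FPKM with YM155. The copies traded places in YM155 replicate 1 alone. Their sum was 2.52, 3.16 and 3.28 FPKM with DMSO against 4.505, 4.51 and 3.69 FPKM with YM155, far under the level of the next scarcest subunit gene, EIF3J. EIF3C was not tested, since it reached 1 FPKM in 1 library, and EIF3CL did not pass (adjusted p = 0.51; log2 fold change -0.35, and 0.36 without YM155 replicate 1). With the 2 rows summed, a step added after seeing the data, 35 members were higher and 8 lower.

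**Figure D4:**
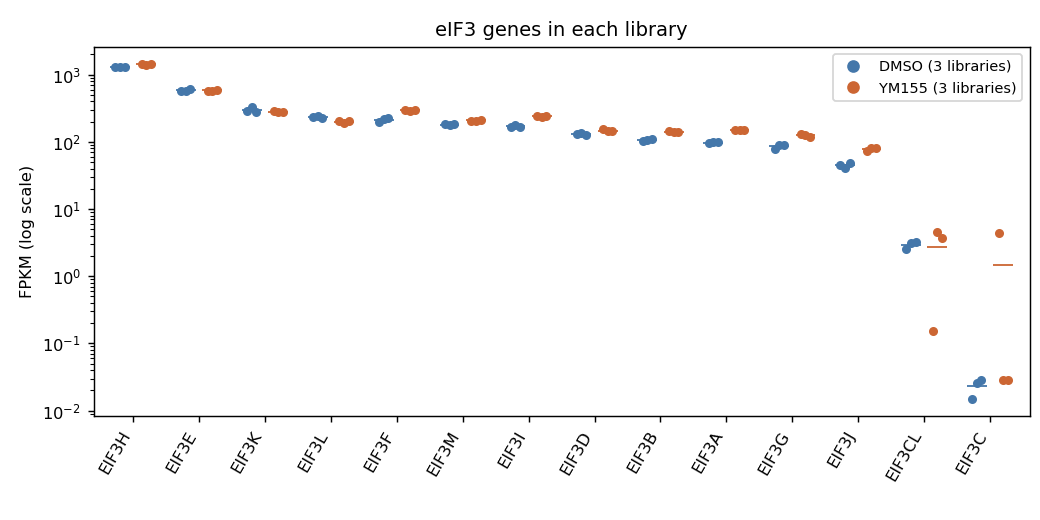
FPKM of the 14 eIF3 genes in each library on a log axis, in order of their DMSO mean (DMSO blue, YM155 orange, bars are means of 3). EIF3H and EIF3E stand above the rest, and EIF3C and EIF3CL, at the right, exchange values in 1 YM155 library.

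All 10 tested genes of eIF4E, eIF4G, eIF4A, eIF4B and eIF4H rose on the deposited scale (median log2 fold change 0.42, and 0.074 after upper-quartile scaling). Over all tested genes these medians were 0.025 and -0.28. Under all 6 scalings 3 of the 10 were higher: EIF4A2, EIF4G1 and EIF4G3. EIF4A2 encodes the less abundant of the paired helicases that unwind messenger RNA leaders, and was at 183, 186 and 187 FPKM with DMSO against 435, 436 and 452 FPKM with YM155. Its 2.38-fold rise (log2 fold change 1.25 with SE 0.0378 and adjusted p = 6.3e-09) came without overlap. EIF4A1, the main helicase gene, was at 441, 477 and 443 FPKM with DMSO against 582, 543 and 569.9 FPKM with YM155 (1.25-fold higher, log2 fold change 0.32 with SE 0.0482 and adjusted p = 0.0002), and its log2 fold change was -0.032 with upper-quartile scaling. EIF4A2 per EIF4A1 was 0.416, 0.390 and 0.421 with DMSO against 0.746, 0.803 and 0.793 with YM155, so the minor helicase message came close to the major.

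The eIF4G scaffolds link the cap to the ribosome. EIF4G1 was at 82.4, 86.6 and 85.8 FPKM with DMSO against 146, 148 and 141 FPKM with YM155, 1.71-fold higher (log2 fold change 0.77 with SE 0.0411 and adjusted p = 1.9e-07). EIF4G3, for a second full-length scaffold, was at 25.6, 26.3 and 26.6 FPKM with DMSO against 37.5, 38.5 and 36.8 FPKM with YM155, 1.44-fold higher (log2 fold change 0.51 with SE 0.0438 and adjusted p = 4.3e-06). Neither overlapped between groups. EIF4G2 encodes DAP5, which lacks the eIF4E site and serves cap-independent initiation, and was the most abundant scaffold gene, at 358, 344 and 345 FPKM with DMSO against 474, 520.3 and 529 FPKM with YM155 (1.45-fold higher, log2 fold change 0.54 with SE 0.0506 and adjusted p = 7.7e-06). Its call ended with quantile normalization (log2 fold change 0.056). The cofactors EIF4B and EIF4H rose 1.29-fold and 1.397-fold, and EIF4A3, the helicase of the exon junction complex, 1.29-fold.

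EIF4E, the cap-binding subunit, was the scarcest tested gene of this group, at 20.8, 19.4 and 20.9 FPKM with DMSO against 21.8, 24.2 and 23.9 FPKM with YM155. It was 1.14-fold higher (log2 fold change 0.18 with SE 0.0578 and adjusted p = 0.015). The call was lost without DMSO replicate 2 (adjusted p = 0.058) and without YM155 replicate 2 or 3 (0.055 and 0.052), and the log2 fold change was -0.15 with upper-quartile scaling. EIF4E2, for the repressive cap-binding homolog, was at 71.2, 78.02 and 76.5 FPKM with DMSO against 96.01, 86.3 and 91.7 FPKM with YM155 (1.21-fold higher, adjusted p = 0.0011), and also turned in sign with that scaling (-0.069). EIF4E3 and EIF4E1B were under 0.2 FPKM in every library and were not tested. EIF4G1 per EIF4E was 3.97, 4.45 and 4.09 with DMSO against 6.73, 6.12 and 5.901 with YM155.

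Among the 4 repressors that bind eIF4E, 1 rose, 2 fell and 1 did not pass. EIF4EBP1, a known target of ATF4, was at 42.7, 44.1 and 42.5 FPKM with DMSO against 109.9, 107 and 108 FPKM with YM155. The 2.51-fold rise (log2 fold change 1.31 with SE 0.0392 and adjusted p = 5.9e-09) was the third largest among tested members on the log2 scale, after EIF1 and EIF5A2, and the groups were far apart. It held under all 6 scalings (0.94 to 1.29 relative to the median). EIF4EBP2, the related repressor, was at 21.4, 19.8 and 21.8 FPKM with DMSO against 16.6, 18.3 and 18.4 FPKM with YM155, 1.18-fold lower (log2 fold change -0.23 with SE 0.0608 and adjusted p = 0.0059), without overlap. EIF4EBP3 was at 20.3, 26.1 and 25.98 FPKM with DMSO against 24.1, 20.4 and 21.03 FPKM with YM155, with overlapping groups (adjusted p = 0.25), and was called lower without DMSO replicate 1 (adjusted p = 0.019). It shares sequence with a readthrough transcript, ANKHD1-EIF4EBP3, which was at 12.1 ± 2.54 FPKM (DMSO) against 12.5 ± 3.58 FPKM (YM155), so its level is uncertain. EIF4ENIF1, for the transporter 4E-T that carries eIF4E to the nucleus and to P-bodies, was at 4.504, 4.97 and 4.76 FPKM with DMSO against 3.39, 3.17 and 2.76 FPKM with YM155, 1.53-fold lower (log2 fold change -0.49 with SE 0.0795 and adjusted p = 0.00033).

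EIF4EBP1 per EIF4E was 2.06, 2.27 and 2.03 with DMSO against 5.05, 4.45 and 4.495 with YM155. The log2 fold change of EIF4EBP1 less that of EIF4E was 1.13 on the deposited scale, 0.98 with quantile normalization and 1.07 with cyclic loess. EIF4EBP1 made up 48.9 ± 1.74% of the summed EIF4EBP messages with DMSO and 73.2 ± 0.280% with YM155 (SD, n = 3). The 3 EIF4EBP genes summed per EIF4E went from 4.33 ± 0.281 to 6.37 ± 0.480. None of these ratios overlapped between groups, and each exact permutation p was 0.1, the smallest possible. The balance of message therefore moved toward EIF4EBP1, while phosphorylation of the proteins was not measured.

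**Figure D5:**
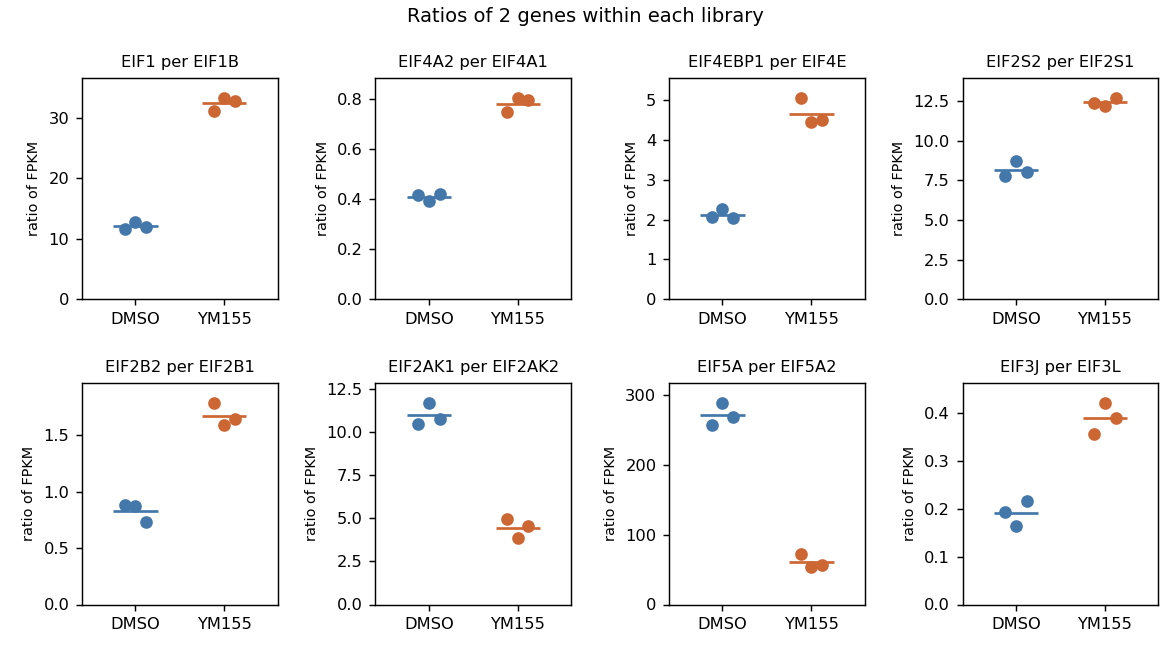
Ratios of the deposited FPKM of 2 genes within each library, which scaling by 1 constant per library does not change (points are libraries, bars are means of 3, axes start at 0). No ratio overlaps between DMSO and YM155. EIF1 per EIF1B, EIF4A2 per EIF4A1 and EIF4EBP1 per EIF4E are higher with YM155, and EIF2AK1 per EIF2AK2 and EIF5A per EIF5A2 are lower.

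The last steps of initiation join the large ribosomal subunit. EIF5B, for the GTPase of subunit joining, rose 1.49-fold, with 42.3, 41.1 and 44.8 FPKM with DMSO against 63.6, 62.2 and 65.4 FPKM with YM155 (log2 fold change 0.57 with SE 0.0470 and adjusted p = 3.3e-06), and the call ended with quantile normalization (adjusted p = 0.054). EIF6, whose protein keeps the large subunit from joining too early, rose 1.29-fold, with 256, 258 and 227 FPKM with DMSO against 329.8, 317 and 306 FPKM with YM155 (log2 fold change 0.37 with SE 0.0579 and adjusted p = 0.00027), and its log2 fold change was 0.018 with upper-quartile scaling. The groups of both were apart on the deposited scale.

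EIF5A and EIF5A2 encode isoforms of the hypusine-bearing factor that helps ribosomes through difficult peptide bonds. EIF5A was at 254, 264 and 279 FPKM with DMSO against 289, 292 and 289 FPKM with YM155 (1.09-fold higher, log2 fold change 0.13 with SE 0.0446 and adjusted p = 0.024). This call was lost without DMSO replicate 1 or 2 (adjusted p = 0.1 and 0.056) or YM155 replicate 2 or 3 (0.069 and 0.056), and its sign turned with upper-quartile scaling (-0.22). EIF5A2, known as a gene of restricted expression that is raised in some cancers, was at 0.989, 0.918 and 1.04 FPKM with DMSO against 4.02, 5.495 and 5.07 FPKM with YM155, 4.95-fold higher (log2 fold change 1.56, and 1.53 to 1.92 relative to the median over the scalings), and every YM155 library was above every DMSO library. Only 1 DMSO library reached 1 FPKM, so the gene passed the filter through the YM155 libraries, and its difference is given as a description without a test. The log2 fold change of EIF5A less that of EIF5A2 was -1.43 on the deposited scale, -2.20 with quantile normalization and -2.07 with cyclic loess. EIF5A messages still outnumbered EIF5A2 messages 60.7 ± 9.97-fold with YM155, against 271 ± 15.7-fold with DMSO (SD, n = 3). EIF5AL1, a near copy of EIF5A, stayed under 1 FPKM in every library and was not tested. The remaining untested member was listed at 0 in all 6 libraries.

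Summed over the 55 members, expression was 6658 ± 96.3 FPKM with DMSO, against 9634 ± 72.6 FPKM with YM155. As a share of each library's summed FPKM this was 1.22 ± 0.0254% and 1.41 ± 0.0266% (SD, n = 3). EIF1 and EIF4A2 together account for most of the difference in the sum.

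Genes that act on or beside these factors were described from lists chosen by function, with earlier results of these data known. The lists also hold transcripts known to be induced through phosphorylated eIF2. Of 66 tested genes in 9 lists, 43 rose and 18 fell, against 43.6% and 41.0% of all tested genes. Under all 6 scalings 32 rose and 16 fell, against 30.4% and 35.3% (median log2 fold change 0.46). All 5 genes of the eIF2 phosphatase rose on the deposited scale, 3 of them under all 6 scalings. PPP1R15A (GADD34), the stress-induced subunit that directs the phosphatase to eIF2, was at 57.7, 54.5 and 56.6 FPKM with DMSO against 423, 431 and 397 FPKM with YM155 (7.41-fold). PPP1R15B, its constitutive counterpart, was at 16.99, 15.7 and 17.4 FPKM with DMSO against 99.4, 109.8 and 106 FPKM with YM155 (6.29-fold). In both genes every YM155 library lay far above every DMSO library, and both folds were larger than that of any eIF2 kinase. PPP1CA, the most abundant of the catalytic subunits, rose 1.31-fold, a call that did not hold under all scalings. PPP1CC rose 1.24-fold, and its log2 fold change turned to -0.034 with upper-quartile scaling.

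Of 11 partners of the kinases, 6 rose and 3 fell. HSPA5 (BiP), which holds PERK inactive, rose 3.77-fold, from 129 ± 6.68 to 486 ± 7.91 FPKM. DNAJC3 (P58IPK), an inhibitor of PKR and PERK, rose 2.21-fold, from 11.9 ± 0.890 to 26.3 ± 2.38 FPKM, and NCK1, an adaptor that limits eIF2 phosphorylation, rose 2.32-fold, from 4.18 ± 0.254 to 9.71 ± 0.727 FPKM. The 3 that fell were IMPACT, an inhibitor of GCN2 (2.04-fold, from 5.75 ± 0.436 to 2.82 ± 0.415 FPKM), OMA1, the mitochondrial protease upstream of HRI (1.81-fold), and TARBP2, a partner of PKR (1.47-fold). GCN1, the coactivator of GCN2, rose 1.59-fold, and KIAA0141 (DELE1), the messenger between OMA1 and HRI, did not pass, at 20.9 ± 1.17 FPKM (DMSO) against 21.7 ± 1.37 FPKM (YM155). All 10 genes of a list known to be induced through phosphorylated eIF2 rose, with a median log2 fold change of 3.38. Phosphorylation of eIF2 was not measured, and the route of these rises was not tested. ATF4, the transcription factor of the program, was at 354, 374 and 354 FPKM with DMSO against 762, 728 and 742 FPKM with YM155 (2.06-fold). The folds of the others were larger: TRIB3 24.8-fold, DDIT3 (CHOP) 16.4-fold, ASNS 13.97-fold, DDIT4 12.98-fold, CHAC1 12.5-fold, ATF3 11.05-fold, SESN2 5.59-fold and VLDLR 3.34-fold. PPP1R15A is in this list as well as in that of the phosphatase.

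Of 10 regulators of eIF4E and eIF4A, 7 rose and 3 fell. MKNK2, a kinase of eIF4E, rose 4.41-fold, from 44.4 ± 2.74 to 196 ± 9.84 FPKM, and LARP1, which represses messages with a terminal oligopyrimidine tract, rose 2.22-fold, from 42.3 ± 0.889 to 93.8 ± 0.920 FPKM. The 3 that fell were PDCD4, an inhibitor of eIF4A (1.34-fold), RPS6KB1, an S6 kinase gene (1.32-fold), and RPTOR, of mTORC1 (1.19-fold), the last not under every scaling. Other genes of mTORC1 and S6 kinase rose: MTOR 1.80-fold and RPS6KB2 1.43-fold, both under all 6 scalings. RPTOR turned to 0.0029 on the log2 scale with cyclic loess, and its call was lost without any 1 library except YM155 replicate 1 (adjusted p = 0.054 to 0.09). PABPC4 rose 2.12-fold and PABPC1, the main cytoplasmic poly(A)-binding protein gene, 1.61-fold, while PAIP1 and PAIP2B fell 1.17-fold and 2.43-fold and PAIP2 did not pass.

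Of 9 other initiation and recycling factors 4 rose and 5 fell, with a median log2 fold change of -0.15. DDX3X, a helicase of structured leaders and the most abundant over all 6 libraries (NCBP2 was higher in each DMSO library), rose 1.49-fold, although not under every scaling. The 5 that fell were MCTS1 (1.902-fold) and its partner DENR (1.13-fold), which act in reinitiation as EIF2D does, the nuclear cap-binding genes NCBP1 (1.57-fold) and NCBP2 (1.11-fold), and DHX9 (1.39-fold). The calls of all 5 held under the 6 scalings, but DENR lost its call without DMSO replicate 1 or 3 or YM155 replicate 1 (adjusted p = 0.068, 0.11 and 0.08), and NCBP2 without DMSO replicate 3 (0.058). Of 12 elongation and termination genes, which include the mitochondrial TUFM, TSFM and GFM1, 9 rose and 2 fell. ETF1, the release factor gene, rose 2.26-fold, from 44.8 ± 2.14 to 101 ± 4.23 FPKM, EEF1A1, the most abundant, rose 1.31-fold, and TSFM and EEF2K fell 1.45-fold and 1.15-fold. EEF2K lost its call without any 1 of the 6 libraries (adjusted p = 0.053 to 0.1), and its log2 fold change turned to 0.025 with quantile normalization and 0.069 with cyclic loess. Of the 9 that rose, 4 were higher under all 6 scalings (EEF1A2, EEF2, ETF1 and GSPT1), and EEF1A1 was not. EEF1B2, EEF1D, GFM1 and TUFM turned in sign with upper-quartile scaling (-0.20, -0.15, -0.14 and -0.19). From the same 9, 3 also lost their calls without 1 library. These were EEF1B2 (without DMSO replicate 1 or 3 or YM155 replicate 1 or 3, adjusted p = 0.054 to 0.065), GFM1 (without DMSO or YM155 replicate 2, 0.059 to 0.062) and TUFM (without DMSO replicate 1 or YM155 replicate 1 or 2, 0.066 to 0.12). All 3 genes of mitochondrial initiation fell: MTFMT, the formylase of initiator tRNA, 2.31-fold, from 5.47 ± 0.480 to 2.36 ± 0.180 FPKM, MTIF3 1.37-fold and MTIF2 1.29-fold, each under all 6 scalings. DOHH, which completes hypusine on eIF5A, rose 2.13-fold, from 5.42 ± 0.201 to 11.6 ± 0.609 FPKM, and DHPS, which acts before it, did not pass, at 29.0 ± 0.786 FPKM (DMSO) against 30.9 ± 2.87 FPKM (YM155).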

How the data were processed

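RNA from HT29 cells with DMSO or YM155 was sequenced in 3 libraries per group, made with a stranded mRNA kit per the labels' protocols. The authors deposited 1 table of FPKM per library. The submitters' processing notes name Cufflinks 2.2.1, Cuffdiff, SAMtools 1.2, TopHat2 2.1.1 and Bowtie2 2.3.5.1, and the build hg19. Their settings, the annotation, read totals and whether strand was used were not stated in the labels, so overlapping and antisense genes are uncertain. Groups were taken from the treatment label, since titles spell the compound YM115.

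FPKM of at least 1 in at least 3 libraries was required. Values were tested as log2(FPKM + 1) with limma 3.58.1 in R 4.3.3 (eBayes with trend, two-sided, Benjamini-Hochberg over all 12035 tested genes, threshold 0.05). Folds are ratios of mean FPKM, which holds no counts, so no count model was used. Members, lists and rules were chosen with earlier results of these data known. All members could be named, with values in every library for eIF2, eIF2B, the kinases, the EIF4EBP genes, EIF4E, EIF4A1, EIF4A2 and eIF4G, for members with an absolute log2 fold change of at least 1, and for the most abundant and most changed of each role. From lists, members past the threshold with an absolute log2 fold change of at least 1 and the most abundant were named. Other list genes were named after their values were seen. The 6 scalings were the deposited scale, median-of-ratios, upper-quartile, common sum, quantile and cyclic loess. Replicate numbers were not used as pairs, as same-numbered libraries did not deviate together (correlations of -0.071, -0.15, -0.12).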

Additional observations from a re-analysis of the deposited data

How the results depend on the processing

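The counts of members higher and lower (34 and 8) changed by over 1.5 times under 4 of the 19 alternatives: upper-quartile scaling (18 higher, 20 lower), a common sum (19 and 17), quantile normalization (13 and 21) and cyclic loess, which was added after seeing the data (20 and 16). The alternatives without 1 library gave 31 to 36 higher and 7 to 8 lower. The replicate numbers did not pair the libraries, and with the replicate block 32 were higher and 8 lower, and the calls of EIF3H and EIF5A ended (adjusted p = 0.058 and 0.056). The other alternatives gave 31 to 35 higher and 6 to 8 lower.

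Log2 fold changes that turned in sign were, with upper-quartile scaling, EIF1AD -0.27, EIF1AX -0.14, EIF2S3 -0.14, EIF2B4 -0.10, EIF2B5 -0.069, EIF3D -0.18, EIF3H -0.22, EIF3M -0.14, EIF4E -0.15, EIF4E2 -0.069, EIF4A1 -0.032, EIF5 -0.28, EIF5A -0.22, EIF2AK3 -0.22. With a common sum they were EIF1AD -0.25, EIF1AX -0.12, EIF2S3 -0.12, EIF2B4 -0.077, EIF2B5 -0.046, EIF3D -0.16, EIF3H -0.19, EIF3M -0.12, EIF4E -0.13, EIF4E2 -0.045, EIF4A1 -0.0073, EIF5 -0.26, EIF5A -0.20, EIF2AK3 -0.20. With quantile normalization they were EIF1AD -0.12, EIF1AX -0.22, EIF2S3 -0.24, EIF2B4 -0.074, EIF2B5 -0.041, EIF3B -0.032, EIF3D -0.28, EIF3F -0.055, EIF3H -0.26, EIF3M -0.29, EIF4E -0.12, EIF4E2 -0.17, EIF4A1 -0.15, EIF4A3 -0.058, EIF4B -0.16, EIF4H -0.012, EIF5 -0.32, EIF6 -0.16, EIF5A -0.38. With cyclic loess they were EIF1AD -0.087, EIF1AX -0.14, EIF2S3 -0.15, EIF2B4 -0.065, EIF2B5 -0.033, EIF3D -0.19, EIF3H -0.055, EIF3M -0.13, EIF4E -0.11, EIF4E2 -0.073, EIF5 -0.27, EIF5A -0.18. Without 1 library EIF3CL ran from -0.77 (without YM155 replicate 2) to 0.36 (without YM155 replicate 1), and EIF3E from -0.0305 (without YM155 replicate 3) to 0.014 (without DMSO replicate 3). The cause was not tested. FPKM hold no counts, so the depth behind a value is not known. Changes of scarce genes such as EIF5A2 and EIF2AK4 are understated by the pseudocount (log2 fold changes of 2.19 and -1.32 with a pseudocount of 0.1).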

Other observations

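Rows that overlap members were left out by the rule and are given as values. EIF3J-AS1, antisense to EIF3J, was at 10.96, 9.62 and 11.9 FPKM with DMSO against 4.95, 3.82 and 3.76 FPKM with YM155, 2.59-fold lower (log2 fold change -1.20 with SE 0.106 and adjusted p = 5.1e-06 by limma), while EIF3J rose. EIF3J per EIF3J-AS1 was 4.12, 4.21 and 4.11 with DMSO against 14.6, 21.2 and 21.5 with YM155, and whether strand was used in counting is not given in the sources used here. EIF2B5-AS1 was listed at 0.0993, 0.0990 and 0 FPKM with DMSO against 1.42, 0.151 and 0.347 FPKM with YM155, with YM155 replicate 1 far above the other five. SENP3-EIF4A1, a readthrough row, was listed at 0.286, 0.534 and 0.0615 FPKM with DMSO against 0, 0 and 0 FPKM with YM155, under 1 FPKM throughout and small beside EIF4A1.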
